A study of Mus musculus with 2 samples.

Results

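The nuclear-encoded genes of oxidative phosphorylation described here were 45 listed subunits of the respiratory complexes and cytochrome c, of which 44 were among the 19575 genes of the count table. By complex, 14 of 14 listed members of complex I, 2 of 2 of complex II, 4 of 4 of complex III, 8 of 9 of complex IV, 15 of 15 of complex V and Cycs were measured, and Cox4i1 was not analysed here. The list was applied as given. Ndufa4, named as a complex I subunit, was counted there, and sums with it in complex IV were not taken. The nuclei were taken from dorsal spinal cord at L3-L5 of adult mice with the alleles Pdyn-IRES-Cre(+/-) and R26-LSL-Sun1.eGFP(+/-), the same in both groups, so that any cell with prodynorphin expression at some time in life kept a green nuclear envelope. The injured library pooled 8 such mice, either sex, whose left plantar hindpaw had been incised at P3 (postnatal day 3). The naive library pooled 8 littermates, either sex, that had received isoflurane at P3 and no incision. Fluorescent nuclei were sorted, and nuclear RNA was read with droplet 3' chemistry (10x Genomics v3), which counts unique molecular identifiers (UMIs). With 1 pooled library per group no difference between injured and naive had a replicate check, no test between groups was possible, and the 95% intervals given cover counting error only.

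Oxidative phosphorylation makes most of the ATP of neurons. Electrons from NADH enter at complex I and those from succinate at complex II, pass through complex III, cytochrome c and complex IV to oxygen, and the proton gradient built on the way drives ATP synthase, complex V. Nearly all of the subunits are encoded in the nucleus, are made in the cytosol and are imported, whereas a small set in complexes I, III, IV and V is encoded by mitochondrial DNA. What was counted here is RNA of these genes in sorted nuclei, and not the protein. Nuclear RNA is the newly made and retained transcript and differs from the cytosolic messenger pool. Some RNA from outside the nucleus was counted too, as mitochondrially encoded subunits had 3287 injured and 3007 naive UMIs over all nuclei. Whether cytosolic messenger RNA adds to the members' counts was not tested.

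Promoters of respiratory genes are known for binding sites of nuclear respiratory factor 1 (NRF1) and of ETS factors such as GABPA, so the sequence upstream of the start is shown for 5 members: 3 with low injured to naive ratios (Atp5e, Cox5b and Atp5l), Cox6a1, which held the full NRF1 palindrome, and Atp5c1, the member with a ratio above 1 in both neuron classes. Each line gives the 250 bases before the RefSeq start in GRCm38.p6, 5′ to 3′ on the gene's strand, and capitals mark GCGCATG (the core of the NRF1 site) and CCGGAAG (an ETS site) on either strand.
Atp5e, chr2:174464102-174464351, minus strand: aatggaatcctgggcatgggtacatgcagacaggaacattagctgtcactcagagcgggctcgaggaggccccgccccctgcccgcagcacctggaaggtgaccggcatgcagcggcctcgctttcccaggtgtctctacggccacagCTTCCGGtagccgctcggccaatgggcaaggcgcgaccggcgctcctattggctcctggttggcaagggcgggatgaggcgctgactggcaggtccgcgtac
Cox5b, chr1:36691237-36691486, plus strand: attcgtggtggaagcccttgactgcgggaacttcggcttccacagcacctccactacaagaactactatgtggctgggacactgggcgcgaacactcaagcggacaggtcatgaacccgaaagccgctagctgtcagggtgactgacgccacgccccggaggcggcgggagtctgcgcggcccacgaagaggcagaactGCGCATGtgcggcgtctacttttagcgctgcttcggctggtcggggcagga
Atp5l, chr9:44920743-44920992, minus strand: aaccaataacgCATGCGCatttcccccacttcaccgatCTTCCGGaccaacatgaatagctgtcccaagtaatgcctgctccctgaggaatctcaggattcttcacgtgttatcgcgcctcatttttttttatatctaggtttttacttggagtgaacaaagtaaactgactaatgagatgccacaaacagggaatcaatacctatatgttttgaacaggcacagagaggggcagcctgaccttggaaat
Cox6a1, chr5:115348959-115349208, minus strand: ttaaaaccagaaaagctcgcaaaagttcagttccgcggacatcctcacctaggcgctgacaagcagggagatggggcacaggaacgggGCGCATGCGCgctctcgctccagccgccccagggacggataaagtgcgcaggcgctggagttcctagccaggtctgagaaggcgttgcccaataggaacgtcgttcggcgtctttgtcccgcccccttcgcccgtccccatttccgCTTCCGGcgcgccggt
Atp5c1, chr2:10080511-10080760, minus strand: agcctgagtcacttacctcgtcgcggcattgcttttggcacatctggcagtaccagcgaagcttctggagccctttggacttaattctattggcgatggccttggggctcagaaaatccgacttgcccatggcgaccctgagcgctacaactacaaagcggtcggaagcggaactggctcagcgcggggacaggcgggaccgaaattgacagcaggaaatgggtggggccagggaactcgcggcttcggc
Part of some windows lies inside the gene by the GENCODE M21 annotation, 4 bases for Atp5e, 38 for Cox5b and 23 for Cox6a1. Over windows of 300 bases, 250 before and 50 after the start, 35 members had 39 RefSeq promoters. The core GCGCATG was in 10 of the 39 (25.6%), against 3.91% of all 32851 promoters, and the palindrome GCGCATGCGC, which overlaps the core on both strands, was in 4 (10.3% against 0.971%). CCGGAAG was in 9 (23.1% against 8.86%), the YY1 sequence AAGATGGCG in 3 (7.69% against 1.4%), the cyclic AMP response element TGACGTCA in 2 (5.13% against 1.79%) and the GC box GGGCGG in 17 (43.6% against 35.7%), all searched on both strands. The 10 members with the NRF1 core had a median log2 ratio of injured over naive of -0.28 in inhibitory-like and -0.39 in excitatory-like nuclei, against -0.19 and -0.19 for the 25 members without it. The ranges overlapped widely, -0.71 to 0.04 with the core and -0.74 to 0.06 without it in inhibitory-like nuclei. The 5 members shown do not stand for the list. Atp5g2 and Uqcrc1 held the palindrome, with log2 ratios of 0.04 and 0.004 in inhibitory-like nuclei. Ndufb10, Atp5g1 and Atp5g3 had low ratios there and held neither the NRF1 core nor the ETS site. Atp5c1 has another RefSeq start that is not shown, also without these motifs. A link between motif and ratio was not tested. There was no entry for Ndufa2, Ndufb9, Ndufs1, Uqcrc2, Uqcrb, Uqcrq, Cox4i1, Cox6c, Atp5a1 and Atp5f1.

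The injured library held 3547 nuclei with 32934588 UMIs (median 8464 per nucleus) and the naive library 4063 nuclei with 30602222 UMIs (median 6955), and 3 cell barcodes occurred in both. Classes were rebuilt from clusters and markers, since no annotation of nuclei was used, which leaves room for differences from the study's own classes. Inhibitory-like nuclei numbered 2291 injured and 2694 naive, excitatory-like nuclei 838 and 948, and glia-like nuclei 95 and 104 (47 and 54 astrocyte-like, 45 and 42 oligodendrocyte-like, 3 and 8 microglia-like). The classes were set by these markers, so the marker levels are a description only. Summed Gad1, Gad2, Slc32a1 and Slc6a5 stood at 462 injured and 493 naive CPM (UMIs scaled to a class total of 1000000) in inhibitory-like nuclei, where the vesicular glutamate transporter Slc17a6 stood at 3.44 and 4.62 CPM. In excitatory-like nuclei Slc17a6 stood at 207 injured and 224 naive CPM and the inhibitory markers at 26.3 and 27.0 CPM.

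All 44 members were detected in both neuron classes, each with at least 100 UMIs over both libraries. In inhibitory-like nuclei the members' summed level was 1645 CPM injured (1627 to 1663) and 1869 CPM naive (1850 to 1888), a ratio of 0.880 (0.867 to 0.893). In excitatory-like nuclei it was 1729 CPM injured (1702 to 1756) and 1989 CPM naive (1959 to 2019), a ratio of 0.869 (0.850 to 0.889). The level was lower in the injured library in both classes by more than counting error. Of the 44 members, 39 had a ratio under 1 in inhibitory-like nuclei, where 69.1% of the 12922 genes with at least 100 UMIs did, and 40 in excitatory-like nuclei, where 66.3% of 11226 genes did. With trimmed mean scaling the members under 1 were 37 and 37 while the background was 51.9% and 50.4% of genes, and with ratios centred on the median of all genes they were 36 and 37 against 50% and 50%. A ratio of at most 0.8 was seen for 12 members in inhibitory-like (background 12.5%) and 18 in excitatory-like nuclei (background 13.1%). A ratio of at least the inverse, 1/0.8, was seen for 0 members in either class, with backgrounds of 2.39% and 2.12%. The median log2 ratio of the members was -0.22 in inhibitory-like and -0.28 in excitatory-like nuclei, against -0.08 and -0.08 for all genes. The ratio was under 1 in both classes for 36 of the 44 members (53.4% of 11107 genes with at least 100 UMIs in each class) and over 1 in both for Atp5c1 alone (17.98% of genes), and 9 were at or below 0.8 in both (5.09% of genes). The classes are different nuclei of the same 2 libraries and so are not replicates of each other.

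**Figure D1:**
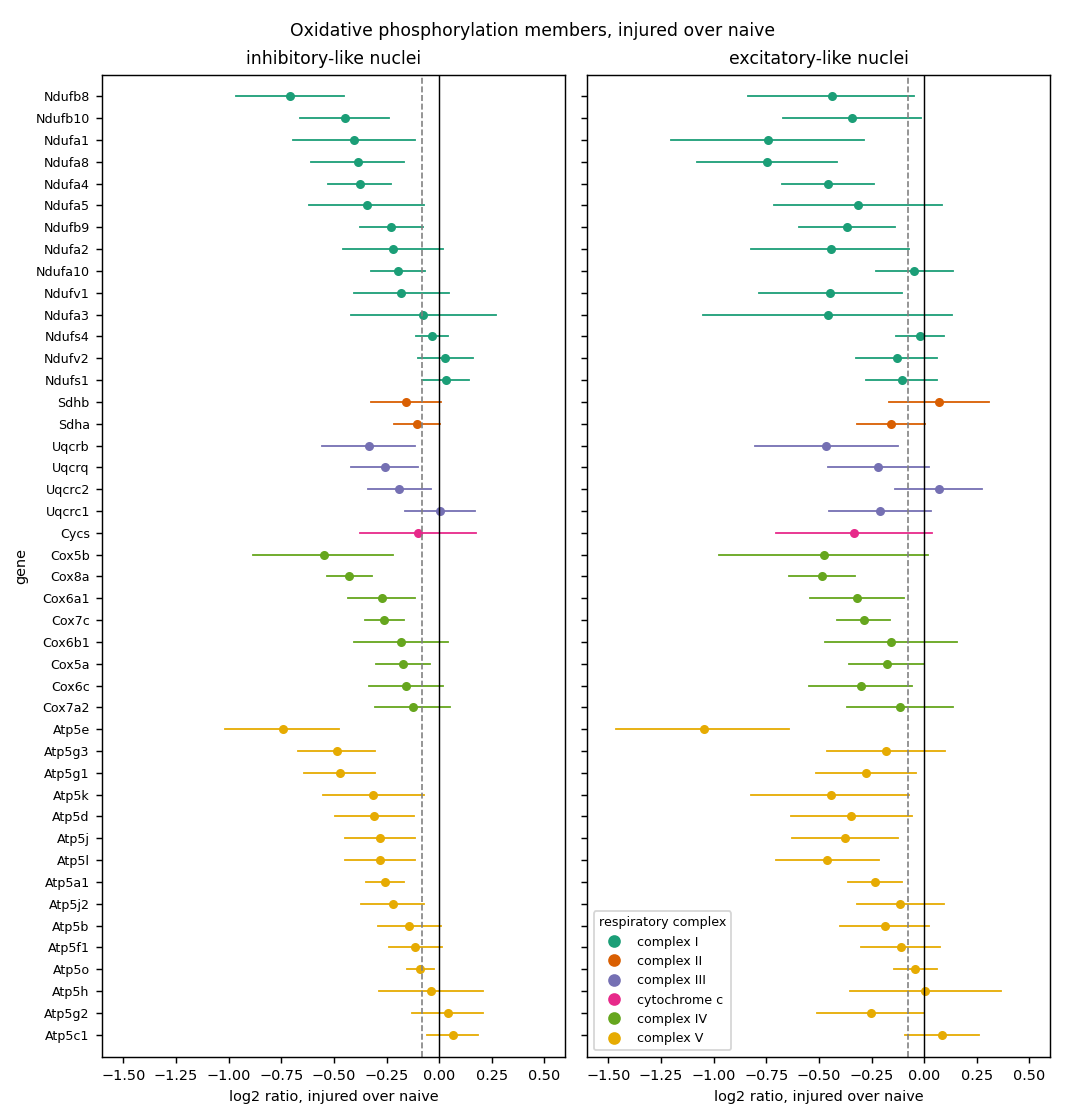
Log2 ratio of injured over naive CPM for each of the 44 members in inhibitory-like (left) and excitatory-like (right) nuclei, coloured by complex, with 95% counting intervals as lines; the solid line is 0 and the dashed line the median of all genes (-0.08 in both classes). In inhibitory-like nuclei 39 members and in excitatory-like nuclei 40 lie left of 0, with Atp5e lowest in both.

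Several other readouts moved with the libraries. Cytosolic ribosomal protein genes stood at 1615 CPM injured and 2219 CPM naive in inhibitory-like nuclei (ratio 0.728), mitochondrially encoded subunits at 87.3 and 98.1 CPM (ratio 0.889), and immediate early and heat shock genes at 457 and 606 CPM, with 17 of the 17 that had at least 100 UMIs under 1. Median depth was 7918 UMIs per injured and 6725 per naive inhibitory-like nucleus, and 10074 and 8084 in excitatory-like nuclei. Oligodendrocyte precursor markers stood at 466 CPM injured and 384 CPM naive in inhibitory-like and 896 and 748 CPM in excitatory-like nuclei. Markers of oligodendrocytes (120 and 119 CPM in inhibitory-like nuclei), microglia (75.6 and 80.4) and astrocytes (53.2 and 54.4) differed less, and motor neuron markers summed to 82 UMIs in injured and 31 in naive inhibitory-like nuclei. Their part in the members' lower level was not tested.

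Complex I, the entry point for electrons from NADH, summed to 470 CPM injured and 522 CPM naive in inhibitory-like nuclei (ratio 0.901, 0.876 to 0.927) and to 472 and 544 CPM in excitatory-like nuclei (0.867, 0.831 to 0.904). In inhibitory-like nuclei 12 of its 14 members were under 1, and in excitatory-like nuclei 14 of 14. The shares were 69.1% and 66.3% for all genes, and 85.7% and 82.9% for genes of up to 12.1 kb and 14.0 kb. Ndufb8, an accessory subunit of the membrane arm, was at 10.6 CPM injured and 17.3 CPM naive in inhibitory-like nuclei (ratio 0.612, 0.513 to 0.730) and at 10.9 and 14.8 CPM in excitatory-like nuclei (0.738, 0.561 to 0.968). Ndufb10, also of the membrane arm, was at 16.3 CPM injured and 22.3 CPM naive in inhibitory-like nuclei (0.732, 0.632 to 0.848). In excitatory-like nuclei the lowest ratios of the complex belonged to the accessory subunits Ndufa8 (13.9 CPM injured, 23.3 CPM naive, 0.597, 0.473 to 0.751) and Ndufa1 (7.52 CPM injured, 12.6 CPM naive, 0.598, 0.434 to 0.819). The Ndufa1 value rested on 68 injured and 105 naive UMIs and its sign turned when nuclei were thinned to 2000 UMIs (log2 0.088).

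Other members of complex I lay nearer to 1. Ndufs4, an accessory subunit of the NADH-oxidising arm whose loss in mice models Leigh syndrome, had the most UMIs of the complex, 2724 injured and 2722 naive in inhibitory-like nuclei. Its level was 138 CPM injured and 141 CPM naive there (0.977, 0.926 to 1.03) and 143 and 145 CPM in excitatory-like nuclei (0.987, 0.912 to 1.07). Ndufs1, which carries iron-sulfur clusters of the electron path, was at 67.6 CPM injured and 66.1 CPM naive in inhibitory-like nuclei (1.02, 0.946 to 1.10). Ndufv2, another iron-sulfur subunit, was at 49.9 and 48.9 CPM (1.02, 0.932 to 1.12). In excitatory-like nuclei both were slightly under 1, Ndufs1 at 0.929 (0.827 to 1.04) and Ndufv2 at 0.914 (0.80 to 1.04). Ndufa10 had the second highest ratio of the complex in excitatory-like nuclei, 56.0 CPM injured and 57.9 CPM naive (0.968, 0.853 to 1.10).

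Complex II, succinate dehydrogenase, feeds electrons from the citric acid cycle and has no mitochondrially encoded part. Its flavoprotein Sdha was at 67.3 CPM injured and 72.5 CPM naive in inhibitory-like nuclei (0.928, 0.861 to 1.0) and at 67.9 and 75.7 CPM in excitatory-like nuclei (0.896). Its iron-sulfur subunit Sdhb was at 29.2 CPM injured and 32.6 CPM naive in inhibitory-like nuclei (0.897, 0.799 to 1.01) and at 35.1 and 33.5 CPM in excitatory-like nuclei (1.05, 0.891 to 1.24). The summed ratio was 0.918 (0.862 to 0.978) in inhibitory-like and 0.943 (0.860 to 1.03) in excitatory-like nuclei, so the difference in excitatory-like nuclei was within counting error.

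Complex III, which passes electrons to cytochrome c, summed to 113 CPM injured and 128 CPM naive in inhibitory-like nuclei (0.882, 0.832 to 0.934) and to 121 and 135 CPM in excitatory-like nuclei (0.902, 0.829 to 0.981). The small subunit Uqcrb was the lowest of the 4 in both classes, at 15.8 CPM injured and 19.9 CPM naive (0.793, 0.681 to 0.923) and at 14.5 and 20 CPM (0.725, 0.572 to 0.916). Uqcrq, which is small as well, followed with ratios of 0.836 and 0.860. The core subunit Uqcrc1 was at 30.4 CPM injured and 30.3 CPM naive in inhibitory-like nuclei (1.0, 0.893 to 1.13) and at 0.864 (0.730 to 1.02) in excitatory-like nuclei. The core subunit Uqcrc2 was at 0.877 (0.791 to 0.973) in inhibitory-like and 1.05 (0.909 to 1.21) in excitatory-like nuclei. Whether these differences between classes exceed chance was not tested. Cycs, the mobile electron carrier cytochrome c, was at 10.9 CPM injured and 11.7 CPM naive in inhibitory-like nuclei (0.933, 0.770 to 1.13) and at 12.8 and 16.2 CPM in excitatory-like nuclei (0.794, 0.614 to 1.03).

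Complex IV, cytochrome c oxidase, had the lowest summed ratio of the multi-subunit complexes in both neuron classes. It stood at 305 CPM injured and 368 CPM naive in inhibitory-like nuclei (0.830, 0.802 to 0.859). In excitatory-like nuclei it stood at 346 and 426 CPM (0.813, 0.775 to 0.854). Of its members 8 of 8 were under 1 in each class. The shares were 69.1% and 66.3% for all genes, and 85.7% and 82.9% for genes of up to 12.1 kb and 14.0 kb. Sums follow the members with most UMIs, and by median log2 ratio complex IV was not the lowest. Its member median was -0.22 in inhibitory-like nuclei, against -0.26 for complex V. In excitatory-like nuclei its member median was -0.29, against -0.40 for complex I. Cox8a, a small structural subunit, was at 63.9 CPM injured and 86.0 CPM naive in inhibitory-like nuclei (0.743, 0.690 to 0.80) and at 65.2 and 91.3 CPM in excitatory-like nuclei (0.714, 0.641 to 0.796). Cox8a was lower in the injured library in 24 of 26 neuron clusters, a count that was not taken over all genes. Cox5b was at 6.63 CPM injured and 9.70 CPM naive in inhibitory-like nuclei (0.684, 0.543 to 0.859), and at 6.96 and 9.69 CPM in excitatory-like nuclei (0.719, 0.509 to 1.01). Gm11273, a gene with a near-identical 3' end, had 48 injured and 51 naive UMIs in inhibitory-like nuclei (ratio 0.918, 0.606 to 1.39), so reads of this pair cannot be assigned with certainty. Cox7c had the most UMIs of the complex, with 88.4 CPM injured and 106 CPM naive in inhibitory-like nuclei (0.835, 0.783 to 0.891) and 107 and 130 CPM in excitatory-like nuclei (0.820, 0.751 to 0.895). The members nearest to 1 in inhibitory-like nuclei were Cox7a2 (25.6 CPM injured, 28.0 CPM naive, 0.916, 0.810 to 1.04) and Cox6c (26.1 and 29.1 CPM, 0.898, 0.795 to 1.01). In excitatory-like nuclei they were Cox7a2 at 0.924 and Cox6b1 at 0.897.

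Complex V, ATP synthase, has a catalytic head (F1), a membrane ring of c subunits and a peripheral stalk. It summed to 649 CPM injured and 735 CPM naive in inhibitory-like nuclei (0.883, 0.862 to 0.904) and to 673 and 758 CPM in excitatory-like nuclei (0.888, 0.857 to 0.920). In the F1 head the members spread from the lowest to the highest ratio of the whole list. Atp5e, the small epsilon subunit of the central stalk, was at 9.41 CPM injured and 15.8 CPM naive in inhibitory-like nuclei (186 and 304 UMIs, 0.597, 0.495 to 0.719) and at 8.62 and 17.8 CPM in excitatory-like nuclei (78 and 149 UMIs, 0.484, 0.363 to 0.640). A UMI of Atp5e was found in 7.55% of injured and 10.5% of naive inhibitory-like nuclei. Its level was lower in the injured library in 23 of 26 neuron clusters, again without a count over all genes. Atp5c1, the gamma subunit that turns inside the head, was at 57.1 CPM injured and 54.7 CPM naive (1.05, 0.960 to 1.14) and at 64.2 and 60.5 CPM (1.06, 0.94 to 1.20), within counting error of equality in both classes. The alpha subunit Atp5a1 was at 93.8 CPM injured and 112 CPM naive in inhibitory-like nuclei (0.838, 0.787 to 0.892), and the catalytic beta subunit Atp5b at 36.5 and 40.2 CPM (0.907).

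The c ring is encoded by 3 genes that make the same mature protein. Atp5g1 was at 25.7 CPM injured and 35.7 CPM naive in inhibitory-like nuclei (0.720, 0.641 to 0.809), Atp5g3 at 21.3 and 29.9 CPM (0.713, 0.627 to 0.810) and Atp5g2 at 29.9 and 29.1 CPM (1.03, 0.914 to 1.16). In excitatory-like nuclei the same genes were closer together, at 0.826 (0.699 to 0.974), 0.881 (0.725 to 1.07) and 0.839 (0.703 to 1.0). Atp5o, a stalk subunit, had the most UMIs of all members, with 184 CPM injured and 196 CPM naive in inhibitory-like nuclei (0.94, 0.898 to 0.984) and 177 and 182 CPM in excitatory-like nuclei (0.972, 0.905 to 1.04); its symbol stands for 2 genes in GENCODE M21. Atp5h, of the peripheral stalk, was at 13.8 CPM injured and 14.2 CPM naive in inhibitory-like nuclei (0.972) and 15.3 and 15.2 CPM in excitatory-like nuclei (1.0). The near-identical Gm10250 had more UMIs than Atp5h, 24.6 CPM injured and 30.3 CPM naive in inhibitory-like nuclei (0.811, 0.717 to 0.916) and 23.2 and 32.1 CPM in excitatory-like nuclei (0.724, 0.601 to 0.871), so the value of Atp5h is uncertain. In excitatory-like nuclei Atp5l, a membrane subunit, was at 27.4 CPM injured and 37.7 CPM naive (0.727, 0.613 to 0.862). Atp5j, of the peripheral stalk, was at 27.8 CPM injured and 33.9 CPM naive in inhibitory-like nuclei (0.822), and it overlaps Gabpa on the opposite strand, as 14 members overlap some gene on the opposite strand and 7 on the same strand.

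Over all genes the ratio was lower for shorter genes. In inhibitory-like nuclei the 3126 genes of up to 12.1 kb had a median log2 ratio of -0.22 and 85.7% were under 1, while the 3126 longest genes, of 71.0 kb and over, had a median of 0.03 and 39.3% under 1. Most members are short. The 31 members in the shortest length group had a median of -0.27 with 30 under 1, and the 9 members in the next group had -0.11, where all genes had -0.12. In excitatory-like nuclei the 34 members of up to 14.0 kb had a median of -0.34 with 33 under 1, against -0.21 and 82.9% for all 2718 genes of that group. The 6 members in the next group had a median of -0.02, against -0.12 for all genes, and the 2 in the group after it had -0.077, against -0.06, so past the shortest group the members there did not keep the order of all genes. Ndufs4, the longest member at 100 kb, had -0.03 and -0.02, where genes of its length group had medians of 0.03 and 0.03. Of genes in the shortest group with at least 1000 UMIs, 94.2% of 600 were under 1 in inhibitory-like nuclei, beside 14 of 15 members. In excitatory-like nuclei 94.9% of 176 such genes were under 1, beside 4 of 4 members. The medians were -0.22 for these genes and -0.26 for the members in inhibitory-like nuclei, and -0.18 and -0.26 in excitatory-like nuclei. The members were also scaled to the total of the short genes that are not members, an alternative chosen after the data had been seen. The summed member level was then -0.037 on the log2 scale in inhibitory-like and -0.037 in excitatory-like nuclei. The medians were -0.073 and -0.12, and 30 members were under 1 in each class, where 35.2% and 32.7% of all genes were at the same scaling. All genes include the longer ones, which had higher ratios, so these shares are no like background for short members. The scaling adds 0.15 and 0.16 to every log2 ratio, and the medians of the short genes were -0.22 and -0.21 before it. The share of short genes under 1 at this scaling was not taken. Whether length, transcript ends or another property shared by short genes is behind the difference was not tested.

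**Figure D2:**
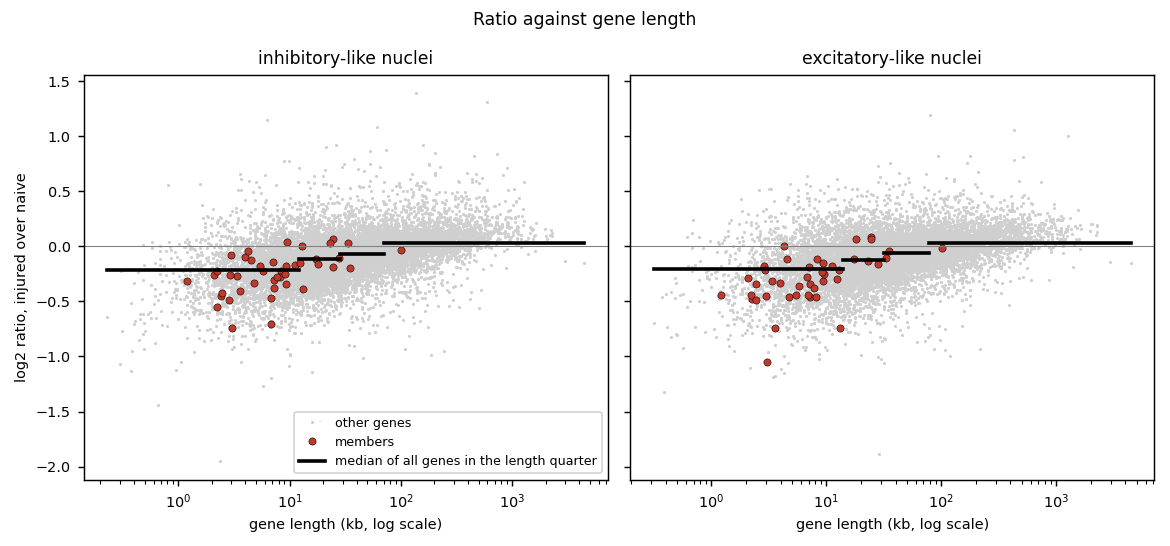
Log2 ratio of injured over naive CPM against gene length in kb (log scale) for genes with at least 100 UMIs; red points are the 43 members with a single GENCODE M21 entry, grey points other genes, and black bars the median of all genes in each length group of equal size. The bars climb from -0.22 to 0.03 in inhibitory-like and from -0.21 to 0.03 in excitatory-like nuclei, and most members lie among the short genes.

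Genes around the members in the same pathway were counted against the same backgrounds, 69.1% of all genes under 1 in inhibitory-like and 66.3% in excitatory-like nuclei. These backgrounds hold genes of all lengths, from 85.7% under 1 in the shortest to 39.3% in the longest length group in inhibitory-like nuclei. The lists were not matched for length, so differences between lists may go with it, which was not tested. Of 37 other oxidative phosphorylation subunits in the table, 35 of 35 with at least 100 UMIs in inhibitory-like nuclei were under 1 (median log2 -0.19) and 30 of 34 in excitatory-like nuclei (-0.29). The lowest in inhibitory-like nuclei were Ndufc2, of complex I (28.7 CPM injured, 41.4 CPM naive, 0.692), and Cyc1, cytochrome c1 of complex III (18.2 CPM injured, 25.9 CPM naive, 0.704). The assembly factors were nearer to the median of all genes, with 33 of 46 under 1 (71.7%, median -0.08) and 31 of 41 (75.6%, -0.13). Cox17, a copper chaperone for complex IV, was lowest among them in inhibitory-like nuclei, on 40 injured and 94 naive UMIs (0.415, 0.279 to 0.607). Of the mitochondrially encoded subunits 7 of 8 were under 1 in inhibitory-like nuclei, from mt-Co3 at 0.752 to mt-Co2 at 1.0. The regulators of respiratory gene transcription were split, 9 of 17 (52.9%) and 10 of 17 (58.8%) under 1, both below the share of all genes. Among them the mitochondrial RNA polymerase Polrmt was at 9.87 CPM injured and 13.6 CPM naive in inhibitory-like nuclei (0.723, 0.598 to 0.874), whereas the coactivator Ppargc1a was at 44.1 and 38.6 CPM (1.14, 1.03 to 1.26) and the nuclear receptor Esrrg at 137 and 108 CPM (1.26, 1.19 to 1.34). Esrrg is among the leading genes of the inhibitory-like cluster led by Samd5, which held 57 injured and 34 naive nuclei. The part of this in the ratio of Esrrg was not tested.

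Beyond the respiratory chain, 13 of 17 citric acid cycle genes were under 1 in inhibitory-like nuclei (median -0.16) and 13 of 18 in excitatory-like nuclei (-0.10). For glycolysis the counts were 15 of 16 (-0.30) and 13 of 15 (-0.10), with Pgam1 at 0.667 and Aldoa at 0.687 in inhibitory-like nuclei. Import and carrier genes were under 1 for 19 of 22 (-0.20) and 15 of 21 (-0.16), and mitochondrial ribosomal protein genes for 68 of 75 (-0.22) and 58 of 71 (-0.17). The cytosolic ribosomal protein genes, which are short as well, had the lowest medians, -0.45 with 78 of 82 under 1 and -0.44 with 70 of 74. The members' medians lay between those of the other lists, and no list was tested against another.

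**Figure D3:**
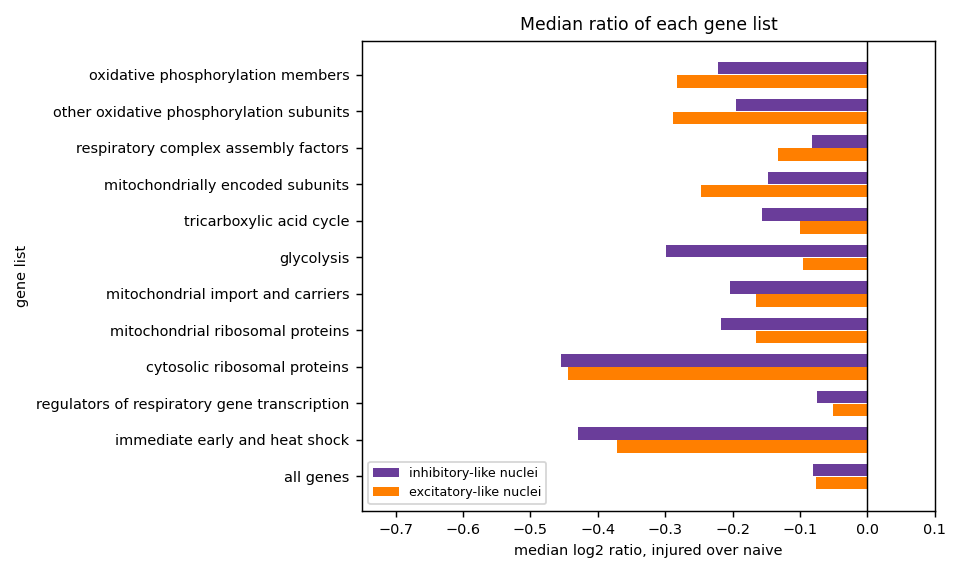
Median log2 ratio of injured over naive CPM for each gene list (genes with at least 100 UMIs), inhibitory-like nuclei in purple and excitatory-like nuclei in orange. All medians are under 0; the members stand at -0.22 and -0.28, cytosolic ribosomal proteins at -0.45 and -0.44 and all genes at -0.08 and -0.08.

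The members' level differed between kinds of neuron by more than between the libraries. Of 33 clusters with at least 50 nuclei, 14 were inhibitory-like and 12 excitatory-like. Over both libraries the summed level in inhibitory-like clusters ranged from 1472 CPM in the cluster led by Igf1 to 2498 CPM in the cluster led by Samd5 and Foxp2, and in excitatory-like clusters from 1655 to 2207 CPM. Within the Samd5 cluster it was 2365 CPM injured (2258 to 2475) and 2799 CPM naive (2625 to 2981). Within the Igf1 cluster it was 1363 CPM injured (1311 to 1417) and 1568 CPM naive (1515 to 1623). The Atp10a cluster, which also had the highest inhibitory marker level, stood at 2202 CPM injured and 2622 CPM naive. All 14 inhibitory-like clusters were lower in the injured library, with ratios between 0.822 and 0.909, as were all 12 excitatory-like clusters, with ratios between 0.802 and 0.911. Of the other 7, the astrocyte-like, oligodendrocyte-like and CSF-contacting neuron-like clusters and 2 unnamed clusters were lower. The 2 exceptions were unnamed, cluster 7.3 of 35 injured and 21 naive nuclei (1.06, 0.951 to 1.19) and cluster 16.1 of 29 injured and 35 naive nuclei (1.18, 1.07 to 1.30).

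**Figure D4:**
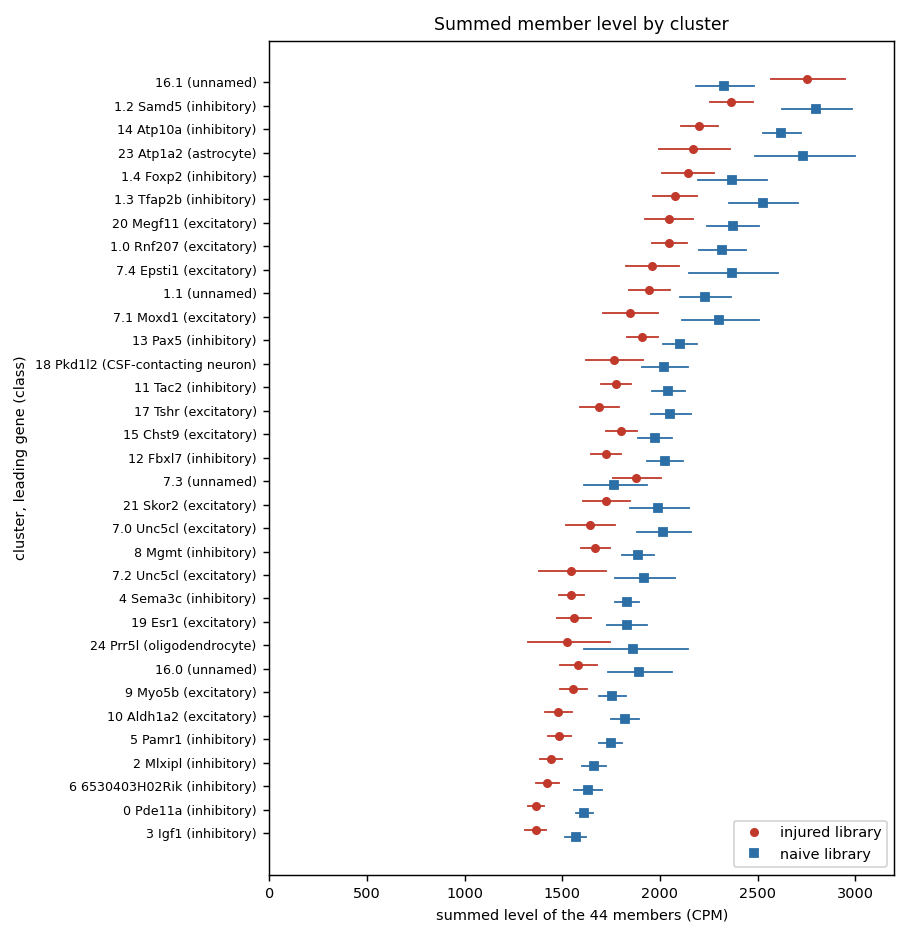
Summed level of the 44 members in CPM for each cluster of at least 50 nuclei, injured library as red circles and naive library as blue squares, with 95% Poisson intervals; rows are ordered by the level over both libraries and named by cluster number, leading gene and class, unnamed clusters by number alone. The injured point lies left of the naive point in 31 of 33 clusters.

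The complexes went up and down together across clusters. Over the 26 neuron clusters, with both libraries summed, the log2 level of each complex correlated with that of all other members with a Pearson r of 0.92 for complex I, 0.79 for complex II, 0.90 for complex III, 0.92 for complex IV, 0.89 for complex V and 0.76 for Cycs. These points share libraries and depth, and are given as a description. Complex IV ranged from 269 CPM in the Pde11a cluster to 610 CPM in the unnamed cluster 16.1 over all 33 clusters, and complex V from 568 CPM in the Igf1 cluster to 1027 CPM in the astrocyte-like cluster. Single members varied as well. Atp5o ranged from 141 CPM in the Pamr1 cluster to 351 CPM in the Tac2 cluster, Atp5a1 from 81.1 CPM in the 6530403H02Rik cluster to 176 CPM in the Atp10a cluster, and Ndufs4 from 110 CPM in the Myo5b cluster to 199 CPM in the Tfap2b cluster. All members but Atp5h, which was lower in 13, were lower in the injured library in at least 14 of the 26 clusters. The highest counts were those of Ndufa4 (25), Cox7c, Cox8a and Atp5a1 (24 each), and Ndufv2, Sdha and Atp5g2 had 14 each. The same count over all genes was not taken. By class, 69.1% of all genes in inhibitory-like and 66.3% in excitatory-like nuclei were under 1. The counts by cluster are therefore not read as a trait of the members.

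Outside the list, the genes whose log2 level over the 26 neuron clusters was most like the members' sum were Ldhb (r = 0.94), the lactate dehydrogenase subunit of oxidative tissues, Ndufaf4 (0.93), a complex I assembly factor, Bdh1 (0.93), a ketone body enzyme, Fam49b (0.92) and Pdss1 (0.91), which makes the side chain of coenzyme Q. Over all 33 clusters they were Ldhb (0.89), Cyc1 (0.88), Cox7b (0.85), Bdh1 (0.84) and Slc4a8 (0.84). In the same 26 clusters the members' sum had r = -0.32 with the mitochondrially encoded subunits, -0.68 with cytosolic ribosomal proteins and 0.62 with the median depth of the cluster.

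Depth was compared because injured nuclei held more UMIs. In inhibitory-like nuclei split into 4 equal groups by UMIs within each library, the summed level was 1716, 1626, 1577 and 1670 CPM from the shallowest to the deepest injured group, against 1881, 1888, 1839 and 1874 CPM in the naive groups. In excitatory-like nuclei it was 1802, 1728, 1709 and 1713 CPM injured, against 2142, 1942, 1978 and 1959 CPM naive. Each injured group was below each naive group in both classes. After each nucleus was thinned to 2000 UMIs, a mean of 3.34 member UMIs remained per injured and 3.75 per naive inhibitory-like nucleus (8 and 8 shallower nuclei left out), and 3.42 and 3.98 per excitatory-like nucleus (2 and 0 left out). At least 1 member UMI was then seen in 95.5% of injured (94.5% to 96.3%) and 97.5% of naive inhibitory-like nuclei (96.8% to 98.1%), where the unthinned shares were 99.9% and 99.9%. In excitatory-like nuclei the thinned shares were 96.5% and 98.2%, and the unthinned ones 100% and 100%.

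**Figure D5:**
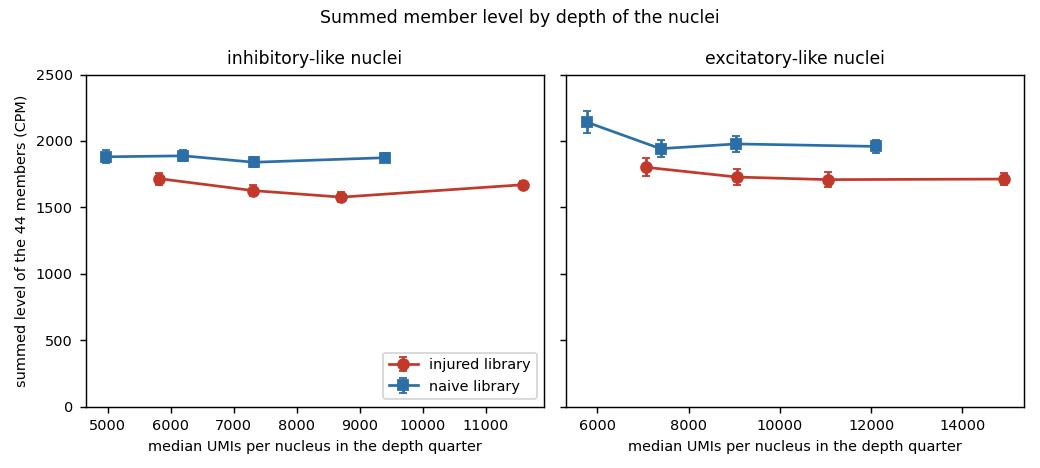
Summed level of the 44 members in CPM against the median UMIs per nucleus of 4 equal depth groups, inhibitory-like nuclei on the left and excitatory-like on the right, injured library as red circles and naive as blue squares, with 95% Poisson intervals. The injured line lies below the naive line at all depths shown, 1577 to 1716 against 1839 to 1888 CPM in inhibitory-like nuclei.

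Excitatory-like nuclei held slightly more of the members than inhibitory-like nuclei in both libraries. The ratio of excitatory-like over inhibitory-like CPM was above 1 for 25 of 44 members in the injured library (54.5% of all genes compared) and for 34 of 44 in the naive library (54.0%), with median ratios of 1.02 and 1.06. It was above 1 in both libraries for 21 of 44 members (42.9% of all genes compared) and below 1 in both for 6 (34.5%). In the injured library the members' share above 1 was thus near that of all genes. Cox7c was 1.21 (1.12 to 1.31) in the injured and 1.23 (1.14 to 1.33) in the naive library, and Cox5a 1.15 (1.03 to 1.28) and 1.15 (1.04 to 1.28). Atp5o was the other way round, 0.959 (0.903 to 1.02) and 0.927 (0.873 to 0.984).

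Glia-like nuclei were few and shallow, and 42 of the 44 members had under 100 UMIs there. Their summed level was 1932 CPM injured (777 UMIs, 1798 to 2073) and 2409 CPM naive (698 UMIs, 2234 to 2595), a ratio of 0.802 (0.723 to 0.889). In astrocyte-like nuclei it was 2170 CPM injured and 2733 CPM naive (0.794, 0.70 to 0.901), and in oligodendrocyte-like nuclei 1522 and 1864 CPM (0.817, 0.669 to 0.998). Complex IV was at 370.5 CPM injured and 518 CPM naive in glia-like nuclei (0.715, 0.566 to 0.904) and complex V at 798 and 1049 CPM (0.761, 0.648 to 0.893), while complex I (0.866, 0.698 to 1.08) did not differ beyond counting error. The 2 members with at least 100 UMIs were Atp5a1, at 137 CPM injured and 190 CPM naive (0.720, 0.487 to 1.07), and Atp5o, at 194 and 224 CPM (0.864, 0.614 to 1.22). Ndufa3 was seen in 4 injured UMIs and 0 naive UMIs, and Cycs in 2 and 2. Compared with inhibitory-like nuclei, 29 of 44 members were higher in glia-like nuclei of the injured library (47.7% of all genes compared) and 34 of 44 in the naive library (49.6%), 25 of them in both (35.1%). Atp5g2 was 1.91 (1.20 to 2.90) times the inhibitory-like level in the injured and 3.32 (2.19 to 4.85) times in the naive library, and Cox6c 1.90 (1.15 to 2.97) and 2.14 (1.26 to 3.41) times. The minimum of 100 UMIs was not applied to members in this comparison, and Atp5g2 and Cox6c are among the 42 below it. Whether the shares of all genes are a like background for members with so few UMIs was not tested. Neuron markers summed to 2742 CPM in injured and 1843 CPM in naive glia-like nuclei, against 10931 and 11273 CPM in inhibitory-like nuclei. The glial markers of the glia-like nuclei differed between the libraries as well. Astrocyte markers stood at 2775 CPM injured and 1964 CPM naive, oligodendrocyte markers at 6671 and 8184 CPM, ependymal markers at 900.03 and 1325 CPM, microglia markers at 246 and 490.2 CPM and oligodendrocyte precursor markers at 485 and 335 CPM. The part of these differences in the glia-like values was not tested.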

How the data were processed

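The deposited count table held raw UMI counts per gene and nucleus. The deposited normalized values equal the natural log of 1 + 10000 × count / total UMIs of that nucleus, within 6e-15, and entered 1 alternative. Cell Ranger 3.0.2, Seurat and build mm10 stand in the submitters' processing notes. Gene annotation and handling of intronic reads: not given in the sources used here. All 7610 nuclei were used, and each gene of the table has a count in at least 4 nuclei.

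The 2 libraries were clustered jointly with scanpy 1.11.5 and leidenalg 0.10.2 (2000 variable genes, 30 components, 15 neighbours, resolution 1.0, no batch correction). The members, other respiratory genes, neuropeptide, Xist-related, Y-linked, immediate early and heat shock genes, 234 in all, were kept out of the variable genes. Inhibitory-like clusters had inhibitory markers at 10 times the excitatory marker or more, excitatory-like clusters the excitatory marker at 4 times the inhibitory ones or more, and glia-like clusters at least 3 detected markers with 1 or more among the leading genes. Unnamed clusters of over 100 nuclei with mixed transmitter markers were clustered again (1000 genes, resolution 0.5). These limits were chosen with the data in view. Clusters with neuron and other markers, or between the limits, stayed unnamed (275 injured and 211 naive nuclei). Doublets were not removed. Scrublet called 7 injured nuclei (0.197%) and 106 naive nuclei (2.61%), with automatic thresholds of 0.493 and 0.236, and its calls served for 1 alternative.

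UMIs were added up per library and class, and CPM is relative to the class total. Levels have exact Poisson, shares exact Clopper-Pearson and ratios exact conditional binomial intervals (95%), which cover counting error only and not variation between mice. At 0 counts over all its nuclei a library allows up to 3 counts, 0.0911 CPM injured and 0.0980 CPM naive of the library total. Relative to the smaller total of a class, the same 3 counts stand for a higher CPM. In glia-like nuclei 2 UMIs of Cycs already stood for 4.97 CPM injured and 6.90 CPM naive. Ratios of injured over naive for single genes in a class were read only where a gene had 100 or more UMIs in that class, libraries summed. Exceptions were Gm11273, with 48 injured and 51 naive UMIs in inhibitory-like nuclei, and the counts by cluster. Ratios between classes were given for all members without this minimum. The interval code was tested on simulated data. Lengths came from GENCODE M21 (GRCm38), where 18777 symbols and 43 members matched 1 gene. Near-identical 3' ends were searched with blastn 2.17.0 (at least 95% identity over 100 bases) and found for 15 members, 3 of them with the copy in the count table. Promoters are from RefSeq, GRCm38.p6. Named members were the 2 highest and 2 lowest ratios of complexes I, III, IV and V, the member with most UMIs, complex II and Cycs, with some of the highest and lowest of the other lists; others named were chosen after their values were seen. The members and lists were chosen with earlier results of these data known.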

Additional observations from a re-analysis of the deposited data

Results flagged for a closer look

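Mitochondrially encoded subunits stood out in the unnamed nuclei, where they were 1.84 times as high in the injured as in the naive library (237 against 129 CPM), while in inhibitory-like nuclei they were at 0.889 times. The difference between the 2 sets of nuclei was not tested. The unnamed cluster with the most of these UMIs, cluster 16.1 of 29 injured and 35 naive nuclei, held 528 injured and 126 naive of these UMIs (1754 and 305 CPM), and without it the ratio was 1.04 (0.851 to 1.28). A small Moxd1 and Egfr cluster of 8 injured and 16 naive nuclei stood at 734 and 89.0 CPM.

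In cluster 16.1 the summed level of the nuclear-encoded members was 1.18 times as high in the injured library (2751 against 2330 CPM), opposite to the 0.880 of inhibitory-like nuclei, and this difference was not tested either.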

How the results depend on the processing

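The members' sum and median stayed negative under each alternative run in inhibitory-like and excitatory-like nuclei, as did the sum in glia-like nuclei, where no median was taken. In inhibitory-like nuclei the summed log2 ratio (-0.18) was -0.11 with trimmed mean scaling, -0.10 centred on the median of all genes, -0.15 in nuclei with only Xist UMIs, -0.24 in nuclei with only Y-linked UMIs, -0.22 with clusters given the same weight and -0.037 scaled to short non-member genes. The median (-0.22) was, in that order, -0.15, -0.14, -0.19, -0.26, -0.26 and -0.073, and -0.25 with nuclei given the same weight or from the deposited normalized values. In excitatory-like nuclei the sum (-0.20) was -0.13, -0.13, -0.17, -0.26 and, scaled to short genes, -0.037. Its median (-0.28) was -0.21, -0.21, -0.20 with at least 300 UMIs, -0.33 with only Y-linked UMIs, -0.23 with nuclei classed by their own markers and -0.12 scaled to short genes. The glia-like sum (-0.32) was -0.14 when thinned, -0.10 with only Y-linked UMIs and -0.49 with nuclei classed by their own markers. Of 559 values for single members, which leave out the scaling to short genes, 518 stayed within the counting interval. The sign turned in 43, which involved 20 of 43 pairs of member and class, and among members whose interval leaves out a ratio of 1 it turned for Ndufa1 in excitatory-like nuclei (0.088 when thinned). Ndufs4 turned in both classes with trimmed mean scaling (0.039 and 0.055). For trimmed means and centring the cause is the shift added to every log2 ratio, 0.07 and 0.08 in inhibitory-like nuclei. For the other alternatives it was not tested. The scaling to short genes adds more, 0.15 in inhibitory-like and 0.16 in excitatory-like nuclei. Signs of single members that it turns are not among the 43. No paired analysis was possible because each group has 1 pooled library. The pools hide the mice, and depth limits glia-like values and members with few UMIs.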

Other observations

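Sets of nuclei that come from different mice of each pool were compared for the members. In inhibitory-like nuclei, 1441 injured and 1707 naive nuclei held Xist UMIs and no Y-linked UMIs, and 710 injured and 778 naive nuclei the reverse; 38 of 44 members were under 1 in the first set (64.2% of all genes) and 40 in the other (67.5%). In excitatory-like nuclei the sets held 548 and 650 nuclei and 229 and 220 nuclei, with 37 and 35 members under 1 (62.4% and 62.2% of all genes). Nuclei with both kinds of UMI made up 4.28% of injured and 4.01% of naive inhibitory-like nuclei. The CSF-contacting neuron-like nuclei, 48 injured and 106 naive, held the members at 1762 CPM injured and 2022 CPM naive (0.872, 0.786 to 0.965).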
